A study of Homo sapiens with 84 samples.

Results

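The proteasome is the barrel-shaped protease that degrades ubiquitin-tagged proteins, and the genes described here encode its subunits and assembly factors. A gene was a member when its annotated symbol was PSMA, PSMB, PSMC, PSMD, PSME, PSMF or PSMG followed by a number and nothing else. There were 44 such genes among the 20046 symbols on the arrays. After the dimmer probes were removed, 42 of the 44 stood among the 12440 genes tested over 8 lines, and 42 stood among the 12559 genes tested over 4 lines. PSMB11, the catalytic subunit of the thymus form, and PSMF1, an inhibitor of the core particle, were not kept. Neither exceeded the detection limit of 6.73 on any of the 48 arrays (log2 intensity, set from the 3 arrays that carry detection p-values). PSMA7, PSMC5, PSMD7 and PSMD13 had no annotated probe and were not analysed here.

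The arrays came from 8 established human lymphoma lines, each a single line grown as a bulk culture. PQR309, a dual inhibitor of PI3K and mTOR per the labels, was given to all 8 lines (OCILY1, OCILY18, DOHH2, SUDHL10, RIVA, SUDHL2, TMD8 and U2932). RIVA, SUDHL2, TMD8 and U2932 also received idelalisib, an inhibitor of PI3K delta, duvelisib, an inhibitor of PI3K delta and gamma, or ibrutinib, an inhibitor of the kinase BTK; the solvent DMSO was the control in every line. Each line, treatment and time (4, 8 and 12 h) had 1 array, which gave 24 PQR309 arrays, 12 arrays for each other inhibitor and 24 DMSO arrays. The labels give no dose, and they do not say whether cultures were separate, so p-values measure the spread between lines. In bulk cultures, fewer cells expressing a gene and less RNA per cell cannot be told apart. The B-cell markers CD79A, CD79B and MS4A1 were above the detection limit on 48 of 48 arrays, CD22 on 47 and PAX5 on 3, and the T-cell markers CD3D and CD3E were above it on 0 of 48. Of the other marker lists, CD2 was above the limit on 13 arrays, CD14 on 23, LYZ on 13, CSF1R on 1, COL1A1 on 9, COL1A2 on 3 and PECAM1 on 22. The 2 deposited tables rank the probes differently for 27 samples. These are the DMSO samples of DOHH2 and the PQR309 and DMSO samples of RIVA, SUDHL2, TMD8 and U2932. The tables may hold different arrays for them, which the labels do not state. The 8-line results below rest on the normalized table and the 4-line inhibitor results on the raw table, and levels were not compared across the tables.

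The 20S core is a stack of alpha rings, which gate the entry pore, around beta rings, in which PSMB5, PSMB6 and PSMB7 carry the proteolytic sites. The 19S cap recognises and unfolds tagged proteins: ATPases (PSMC genes) and PSMD1, PSMD2 and PSMD4 form its base, and other PSMD subunits form the lid. In immune cells, B cells included, PSMB8, PSMB9 and PSMB10 can take the places of PSMB5, PSMB6 and PSMB7. This forms the immunoproteasome, which cuts proteins into peptides for MHC class I. Transcription of constitutive subunits can be driven by NFE2L1, above all when proteasome activity is short, and NFE2L2 binds the same type of site, whereas the immunoproteasome genes respond to interferon.

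Promoter sequences are shown for 4 members to place these site types beside the results: PSMG1, PSMD12 and PSME2, the members with the largest PQR309-associated decreases that hold the letters TGACNNNGC before the start, and PSMB10 of the immunoproteasome. Capitals mark TGACNNNGC, the core of the antioxidant response element, and GAAANNGAAA, the core of an interferon-responsive element. Each line gives the 200 bases before the start in the RefSeq annotation of GRCh38.p14, 5′ to 3′ on the gene's strand, which is the minus strand for all 4. PSMG1 (chr21:39183452-39183651) encodes a chaperone that helps build the alpha ring, PSMD12 (chr17:67366578-67366777) a lid subunit, PSME2 (chr14:24146611-24146810) a subunit of the interferon-inducible PA28 activator, and PSMB10 (chr16:67936851-67937050) the immunoproteasome subunit that replaces PSMB7.
PSMG1: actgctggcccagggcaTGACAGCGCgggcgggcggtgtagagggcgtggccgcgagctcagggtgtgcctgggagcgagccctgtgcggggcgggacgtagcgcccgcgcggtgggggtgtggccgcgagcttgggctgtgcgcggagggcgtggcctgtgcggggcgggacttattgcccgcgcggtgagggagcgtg
PSMD12: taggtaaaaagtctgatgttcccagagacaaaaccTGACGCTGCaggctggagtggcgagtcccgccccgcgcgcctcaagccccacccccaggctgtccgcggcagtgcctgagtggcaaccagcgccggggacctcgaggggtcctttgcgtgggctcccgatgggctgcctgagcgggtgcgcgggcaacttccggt
PSME2: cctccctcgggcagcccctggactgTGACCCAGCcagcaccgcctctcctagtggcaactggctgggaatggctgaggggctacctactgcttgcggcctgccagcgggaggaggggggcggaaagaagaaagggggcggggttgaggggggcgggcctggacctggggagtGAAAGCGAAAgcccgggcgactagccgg
PSMB10: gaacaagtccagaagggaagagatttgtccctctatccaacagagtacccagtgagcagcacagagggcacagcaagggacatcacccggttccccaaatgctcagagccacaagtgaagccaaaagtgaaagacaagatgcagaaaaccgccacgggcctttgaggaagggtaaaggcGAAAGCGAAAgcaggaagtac
RefSeq promoter entries, spanning 250 bases before to 50 after the start, were found for 39 of the 44 members (47 entries, as 7 genes had several). PSMB1, PSMB6, PSMB7, PSMD4 and PSMG3 had no entry. Searched on both strands, TGACNNNGC occurred in 14 of the 47 member entries (29.8%) and in 13.3% of all 35116 promoter entries. It occurred in 10 of 29 entries of members lower under PQR309 over the 3 times (34.5%) and in 4 of 15 entries of tested members that were not (26.7%). GAAANNGAAA occurred in 7 of 47 member entries (14.9%), those of PSMA4, PSMB4, PSMB8, PSMB10, PSME1, PSME2 and PSMG4, and in 3.57% of all entries. CCAAT occurred in 38.3% of member entries and 34.6% of all entries. PSME3 and PSMA3, which had among the largest decreases, held no TGACNNNGC in this window. These matches describe letters in a window and not bound sites.

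Transcripts of the proteasome were lower under PQR309 than under DMSO across much of the complex. Averaged over 4, 8 and 12 h, 25 of the 42 members fell and 0 rose (limma, adjusted p under 0.05), while 14.03% of all genes tested fell and 12.5% rose. The median log2 difference, PQR309 minus DMSO, was -0.18 over the members, and 37 of the 42 values were below 0. All 6 conventional alpha subunits measured fell, as did 11 of 14 subunits of the 19S cap, 3 of 4 activator genes, 2 of 4 chaperones of 20S assembly, 1 of 3 chaperones of the 19S base, 1 of 4 noncatalytic beta subunits and 1 of 3 constitutive catalytic subunits. The immunoproteasome subunits did not pass the test (0 of 3). The decreases were modest in size: the largest, in PSME3, was 0.55 on the log2 scale. In an unpaired fit, which ignores that both treatments were given to the same lines, 0 members passed. In the raw intensities, available for 7 lines here, 14 fell.

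**Figure D1:**
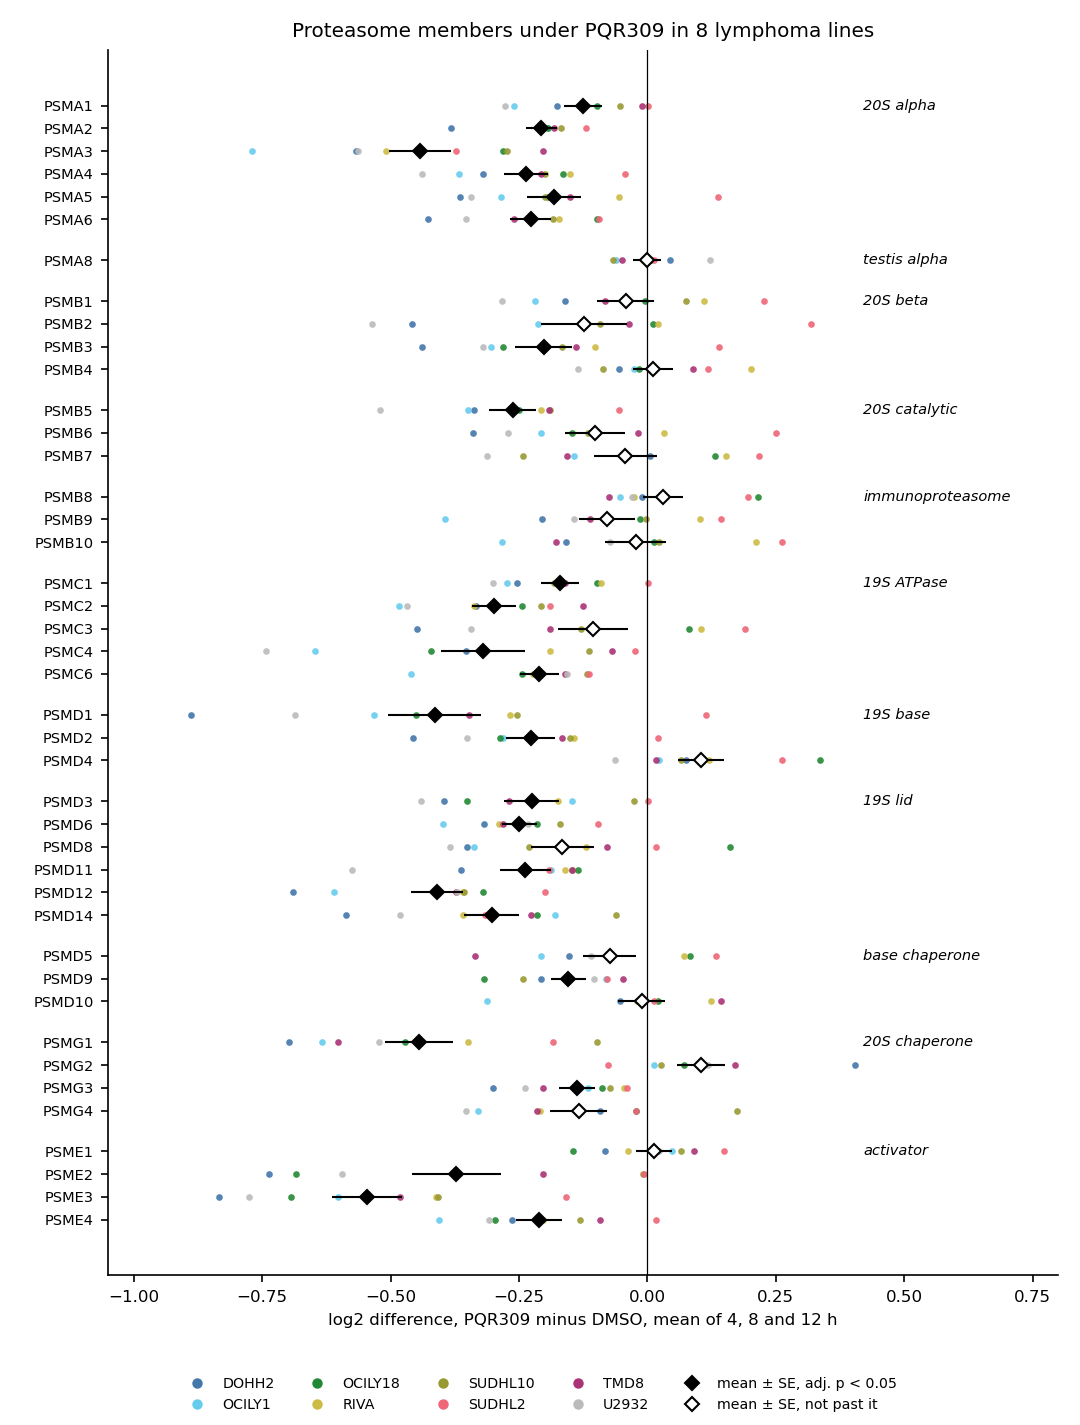
The log2 difference between PQR309 and DMSO, averaged over 4, 8 and 12 h, is plotted on the horizontal axis for each of the 42 tested members, grouped by role; coloured points are the 8 lines and diamonds the mean with its standard error, filled where the adjusted p was under 0.05. The 25 filled diamonds all lie left of 0, and the SUDHL2 points lie at the right end of most of them.

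PSME3, which encodes the nuclear activator PA28 gamma that opens the 20S core without ubiquitin, had levels of 7.96 (lowest line), 8.85 (median) and 9.47 (highest line) in log2 intensity under PQR309, against 8.79, 9.35 and 9.96 under DMSO. The ranges of the lines overlapped, but each of the 8 lines was lower under PQR309 than under its own DMSO control, DOHH2 most (-0.83) and SUDHL2 least (-0.16). The mean difference was -0.55 (SE 0.07, adjusted p = 0.001). A second probe for PSME3 gave -0.50. PSME2, a subunit of the other PA28 activator, had levels of 9.95, 11.08 and 11.86 under PQR309, against 10.64, 11.61 and 11.93 under DMSO, and fell by 0.37 (SE 0.09, adjusted p = 0.0106); in the raw intensities it was at -0.47 without passing (adjusted p = 0.052). DOHH2 had the largest PSME2 decrease (-0.74), SUDHL2 was almost level (-0.01), and the ranges overlapped. Its partner PSME1 had levels of 11.37, 11.80 and 12.33 under PQR309, against 11.32, 11.71 and 12.41 under DMSO, a difference of 0.01 (95% interval -0.06 to 0.09, adjusted p = 0.817). A much dimmer second PSME1 probe gave -0.08, with all 8 lines below 0, and the difference between PSME1 and PSME2 was not tested. PSME4, the PA200 activator, fell by 0.21 (adjusted p = 0.0073).

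Among the alpha subunits, PSMA3 had the largest decrease. Its levels were 9.75, 10.62 and 10.96 under PQR309, against 10.28, 10.98 and 11.52 under DMSO, a difference of -0.44 (SE 0.06, adjusted p = 0.00113). All 8 lines were lower under PQR309, OCILY1 most (-0.77) and TMD8 least (-0.20), and U2932 had the highest level under both treatments. A second PSMA3 probe gave -0.46. The other conventional alpha subunits fell by less: PSMA4 by 0.24, PSMA6 by 0.23, PSMA2 by 0.21, PSMA5 by 0.18 and PSMA1 by 0.13. PSMA8, the alpha subunit of the testis form, was above the detection limit on 18 of 48 arrays, all 6 arrays each of OCILY1, SUDHL10 and U2932, and on none of the arrays of the other 5 lines. U2932 had the highest PSMA8 levels, 7.70 to 8.30, ahead of OCILY1 at 7.29 to 7.78 and SUDHL10 at 6.88 to 7.62. The U2932 and OCILY1 ranges overlapped, as did those of OCILY1 and SUDHL10.

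In the 19S cap, the lid subunit PSMD12 had levels of 8.65, 9.14 and 9.68 under PQR309, against 9.01, 9.65 and 10.01 under DMSO. All 8 lines were lower, with DOHH2 at -0.69 and SUDHL2 at -0.20 as the extremes, and RIVA had the lowest level under both treatments. The mean difference was -0.41 (SE 0.05), with the smallest adjusted p among the members (0.000984). The base scaffold PSMD1, which docks the ubiquitin receptor ADRM1, had levels of 8.42, 9.20 and 9.93 under PQR309, against 9.05, 9.48 and 9.90 under DMSO, a difference of -0.41 (SE 0.09, adjusted p = 0.00838). PSMD1 was lower in 7 of 8 lines, and the lines disagreed widely, with DOHH2 at -0.89 and SUDHL2 at 0.11. Without the 12 h arrays the PSMD1 difference was -0.28 and did not pass (adjusted p = 0.056). The ATPases PSMC4 and PSMC2 fell by 0.32 and 0.30, and the lid deubiquitinase PSMD14 fell by 0.30. The ubiquitin receptor PSMD4 had levels of 9.75, 10.09 and 10.38 under PQR309, against 9.72, 10.02 and 10.26 under DMSO. The difference of 0.10 did not pass (adjusted p = 0.107), although 7 of 8 lines were higher under PQR309, and without the 12 h arrays it was 0.17 and passed (adjusted p = 0.028).

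PSMG1 led the assembly chaperones. Its levels were 9.16, 9.69 and 10.85 under PQR309, against 9.57, 10.31 and 10.95 under DMSO, a difference of -0.44 (SE 0.07, adjusted p = 0.00159). All 8 lines were lower, DOHH2 most (-0.70) and SUDHL10, which had the highest level under both treatments, least (-0.10). A second PSMG1 probe gave -0.51. PSMG2, with which PSMG1 forms a heterodimer, had levels of 10.10, 11.08 and 11.65 under PQR309, against 10.18, 10.87 and 11.58 under DMSO, a difference of 0.10 (adjusted p = 0.127) that did not pass and was above 0 in 7 of 8 lines. PSMG3 fell by 0.14, while PSMG4 (-0.13, adjusted p = 0.104) did not pass. Of the chaperones that assemble the 19S base, PSMD9 fell by 0.15, and PSMD5 (-0.07) and PSMD10 (-0.01) did not pass. In all, 10 of the 25 members that fell had a further probe in the brighter share of the array, and all 11 such probes were below 0, at -0.51 to -0.11.

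PSMB5, the chymotrypsin-like site and the main target of bortezomib, fell over the 3 times. Its levels were 9.85, 10.09 and 10.76 under PQR309, against 10.04, 10.36 and 10.83 under DMSO, a difference of -0.26 (SE 0.05, adjusted p = 0.00278). All 8 lines were lower, U2932 most (-0.52) and SUDHL2 least (-0.06), and the ranges overlapped. In the raw intensities without DOHH2 the PSMB5 call was lost (-0.21, adjusted p = 0.0535). PSMB6, the caspase-like site, had levels of 10.58, 11.30 and 11.64 under PQR309, against 10.72, 11.42 and 11.56 under DMSO, a difference of -0.10 (adjusted p = 0.232); it passed without SUDHL2 (-0.15, adjusted p = 0.0374) and without the 4 h arrays (-0.19, adjusted p = 0.048). PSMB7, the trypsin-like site, had levels of 10.72, 11.14 and 11.68 under PQR309, against 10.87, 11.22 and 11.55 under DMSO, a difference of -0.04 (adjusted p = 0.65). PSMB6 was lower in 6 lines and PSMB7 in 4, and SUDHL2 was the line most above 0 for both.

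Of the noncatalytic beta subunits, PSMB3 fell by 0.20 (adjusted p = 0.0227). PSMB2 (-0.12), PSMB1 (-0.04) and PSMB4 (0.01) did not pass over the 3 times. PSMB4 had levels of 10.40, 10.75 and 10.996 under PQR309, against 10.48, 10.78 and 10.88 under DMSO, so the lines overlapped almost fully.

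PSMB8, which replaces PSMB5 in the immunoproteasome, had levels of 8.61, 9.39 and 9.88 under PQR309, against 8.64, 9.31 and 9.85 under DMSO. The difference of 0.03 had a 95% interval of -0.06 to 0.12 (adjusted p = 0.613), and 3 further PSMB8 probes gave -0.04, -0.03 and 0.01. RIVA had the lowest and SUDHL10 the highest PSMB8 level under both treatments. PSMB9, which replaces PSMB6, had levels of 7.47, 8.01 and 8.57 under PQR309, against 7.37, 8.14 and 8.57 under DMSO, a difference of -0.08 (interval -0.20 to 0.04, adjusted p = 0.33). Without the 4 h arrays the PSMB9 difference was -0.21 and passed (adjusted p = 0.0191). RIVA was again lowest and SUDHL10 highest. PSMB10 had levels of 10.57, 11.11 and 11.81 under PQR309, against 10.77, 11.18 and 11.99 under DMSO, a difference of -0.02 (interval -0.15 to 0.11, adjusted p = 0.817), with TMD8 highest under both. These intervals leave room for small changes in either direction.

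Each immunoproteasome subunit was set against the subunit it replaces. In the normalized values the PSMB8 change exceeded the PSMB5 change in 8 of 8 lines, by 0.29 on average (SD 0.13, n = 8). An exact two-sided sign-flip permutation test over lines gave p = 0.00781, the smallest that 8 lines allow, and 0.0234 after adjustment over 3 pairs. These pairs, and the alternatives for them, were tested after their values had been seen. In the raw intensities the PSMB8 change exceeded the PSMB5 change by 0.28 (SD 0.19, n = 7, higher in 6 of 7 lines, RIVA being the other), with an exact permutation p of 0.0312 that did not pass after adjustment (0.0938), and without DOHH2 by 0.26 (higher in 5 of 6 lines, exact permutation p = 0.0625). At 4 h alone (0.24) and at 8 h alone (0.28) it was higher in 7 of 8 lines and did not pass after adjustment (0.0938 and 0.117, exact permutation), and at 12 h alone (0.36) it was higher in all 8 and passed (0.0234, exact permutation). The PSMB9 change exceeded that of PSMB6 by 0.02 (SD 0.13, n = 8, higher in 5 of 8 lines, exact permutation p = 0.602), and the PSMB10 change exceeded that of PSMB7 by 0.02 (SD 0.17, n = 8, higher in 4 of 8 lines, exact permutation p = 0.727, and -0.14 in the raw intensities).

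**Figure D2:**
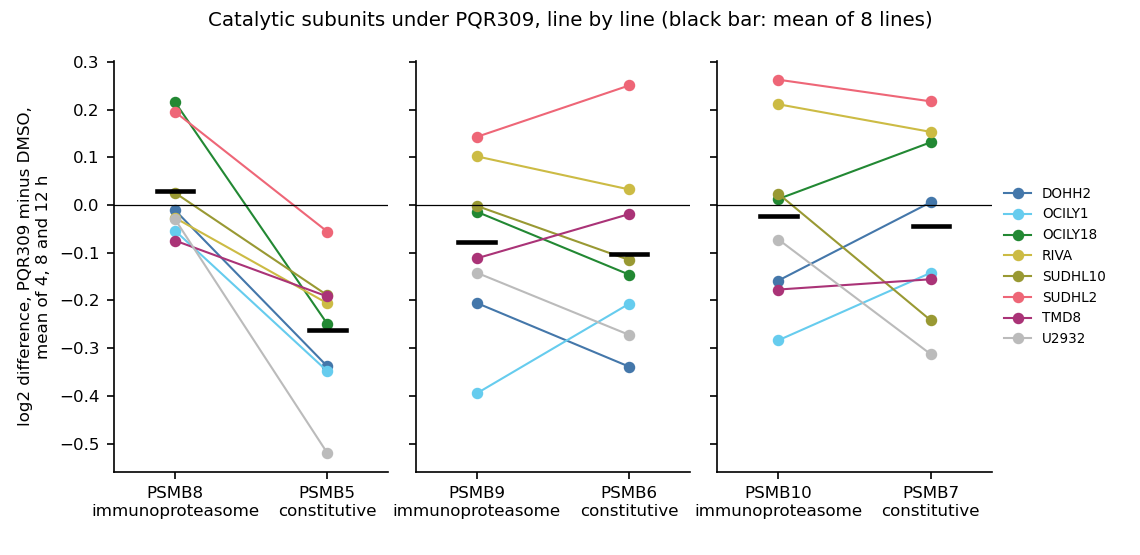
The vertical axis is the log2 difference between PQR309 and DMSO, averaged over 4, 8 and 12 h; each line joins the immunoproteasome subunit (left) and the constitutive subunit it replaces (right) in 1 of 8 cell lines, and black bars are means. Every PSMB8 to PSMB5 line slopes down, by 0.29 on average, while the other pairs slope in both directions.

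The PQR309 effect was then taken at each time. At 4 h, 12 of 42 members fell and 3 rose, beside 9.45% and 7.88% of all genes, and the median member difference was -0.05. The share of members that rose was no larger than that of all genes. Of the 6 conventional alpha subunits, 5 fell, and PSMG1 (-0.39), PSMD12 (-0.41) and PSMA4 (-0.26) had the smallest p-values. The members that rose at 4 h were the ubiquitin receptor PSMD4 (0.38, adjusted p = 0.0358) and the beta subunits PSMB1 (0.29, adjusted p = 0.0172) and PSMB4 (0.17, adjusted p = 0.0375). Each stayed above 0 under every one of 15 alternatives tried, but the call was lost under 10 of them for PSMD4, 10 for PSMB4 and 3 for PSMB1; leaving out OCILY18, RIVA, SUDHL10 or SUDHL2 ended it for both PSMD4 and PSMB4, as did leaving out U2932 for PSMD4 and OCILY1 or TMD8 for PSMB4. The immunoproteasome subunits were above 0 at 4 h (PSMB8 0.16, PSMB9 0.19 and PSMB10 0.13), without passing (adjusted p = 0.176, 0.0958 and 0.369), although PSMB9 passed without OCILY1 (0.24, adjusted p = 0.0352). Without RIVA, or without SUDHL10, the count at 4 h was 9. In the raw intensities (7 lines) 0 members passed at 4 h, with PSMD4 at 0.30, PSMB1 at 0.07 and PSMB4 at 0.06.

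At 8 h, 15 members fell and 0 rose, beside 8.49% and 7.49% of all genes, with a median of -0.18. PSME3 fell by 0.76, PSMD3, a lid subunit, by 0.46 and the base scaffold PSMD2 by 0.42, and these had the smallest p-values. In the raw intensities 3 members fell at 8 h (7 lines) and 18 at 12 h (8 lines). In the normalized values at 12 h, 29 members fell and 0 rose, beside 10% and 10.5% of all genes, with a median of -0.29. The cap then had 12 of 14 subunits lower and the constitutive 20S core 9 of 13. PSMD1 fell by 0.69 (adjusted p = 0.00276), PSMD12 by 0.51 (adjusted p = 0.00378) and PSMD3 by 0.40 (adjusted p = 0.00378). PSMA3 fell by 0.64, and PSMB9 (-0.31, adjusted p = 0.0154, and -0.34 with an adjusted p of 0.0576 in the raw intensities) was the immunoproteasome subunit that fell, while PSMB8 (-0.02) and PSMB10 (-0.15, adjusted p = 0.0903) did not pass; without SUDHL2 PSMB10 did (-0.19, adjusted p = 0.0369).

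**Figure D3:**
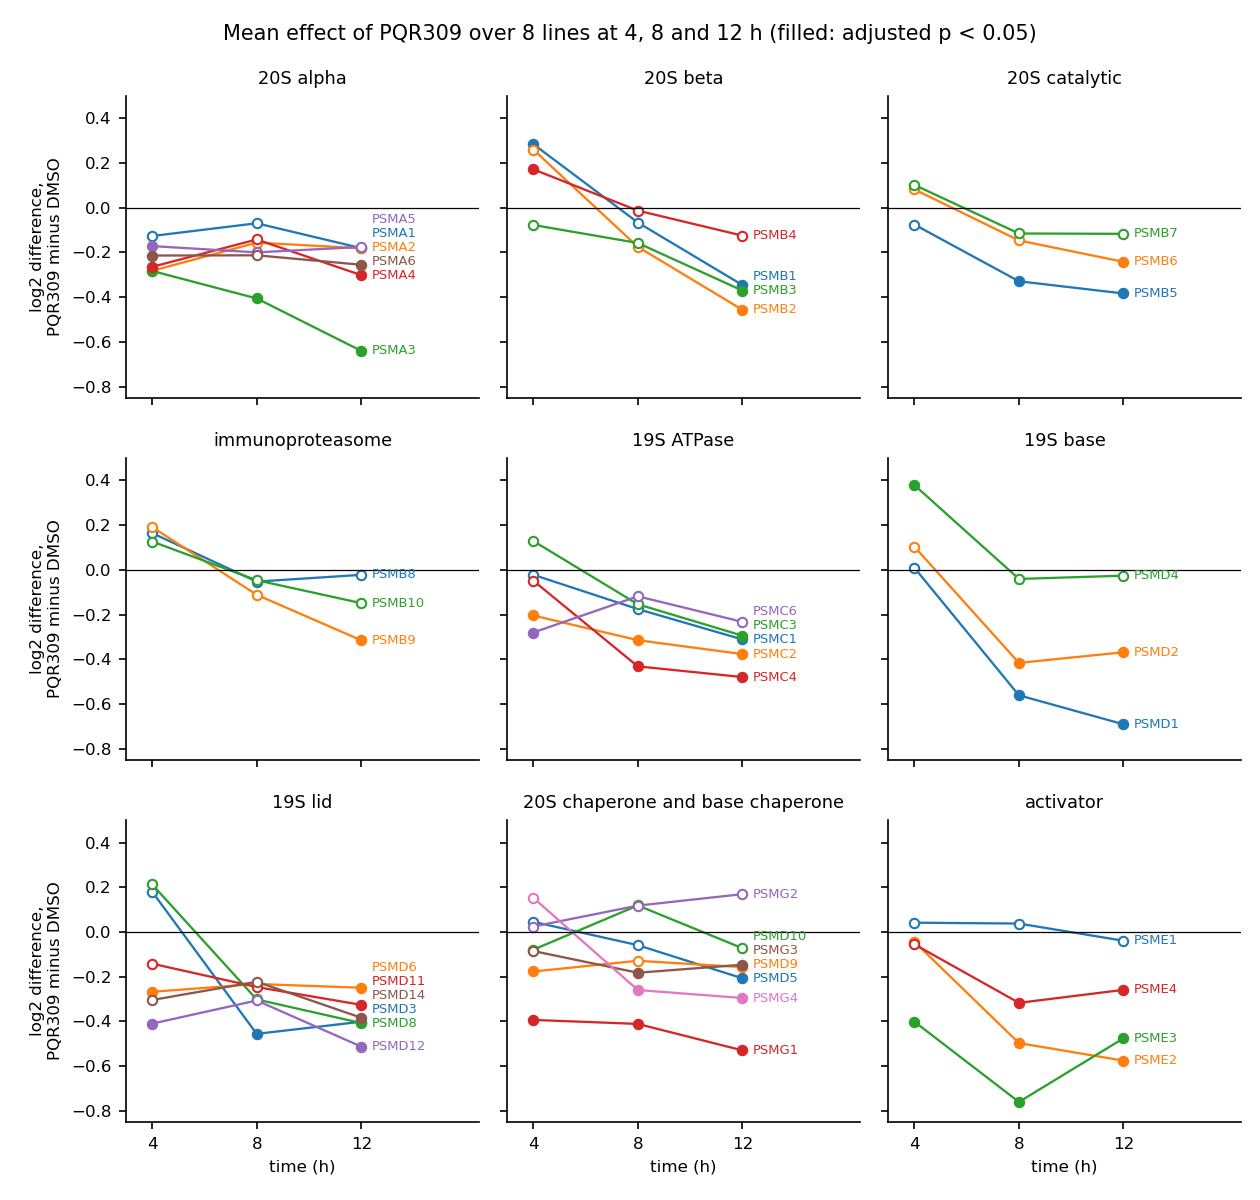
The mean log2 difference between PQR309 and DMSO over 8 lines is plotted against time (4, 8 and 12 h) in 1 panel per role, with filled points where the adjusted p was under 0.05. Alpha subunits start below 0 at 4 h, whereas PSMB1, PSMB4 and PSMD4 start above it and PSMB1 ends at -0.35 at 12 h.

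The change between times was tested directly, as the 12 h effect minus the 4 h effect. It was below 0 and passed in 19 members and passed above 0 in 0, beside 5.51% and 4.87% of all genes, with a member median of -0.21. All 4 noncatalytic beta subunits were among the 19, with 8 of 14 cap subunits, 2 of 3 constitutive catalytic subunits and 2 of 3 immunoproteasome subunits, but 0 of 6 conventional alpha subunits. The test of each difference ran on the same DMSO arrays as the levels below. The raw intensities lack OCILY1 at the earlier times and rank the probes differently for samples of 5 of the lines. In them 0 members and 0 of all genes passed for this change, with a member median of -0.11. Without OCILY18 the count in the normalized values was 12.

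PSMB2, a noncatalytic beta subunit, had the largest such change. It averaged 10.65 at 4 h, 10.64 at 8 h and 10.41 at 12 h under PQR309 (SD 0.47, 0.44 and 0.49), against 10.39, 10.81 and 10.86 under DMSO (SD 0.48, 0.45 and 0.50). The 12 h level minus the 4 h level was thus -0.25 ± 0.16 under PQR309 and 0.47 ± 0.22 under DMSO (SD, n = 8), and the effects differed by -0.72 (adjusted p = 0.000371). The DMSO level was higher at 12 h in all 8 lines, and the PQR309 level was lower in 7 of 8. PSMB1 behaved alike, with a change of -0.29 ± 0.12 under PQR309 and 0.34 ± 0.16 under DMSO (SD, n = 8), and the effects differed by -0.63 (adjusted p = 0.000833). For PSMD1 the change was -0.19 ± 0.23 under PQR309 and 0.51 ± 0.22 under DMSO (SD, n = 8), and for PSMB9 it was -0.16 ± 0.14 and 0.35 ± 0.17 in the same order of treatments.

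Levels under DMSO also changed with time. Of the 42 members, 11 were higher at 12 h than at 4 h and 1 was lower, beside 4.14% and 3.50% of all genes, with a member median of 0.14. PSMD1 (0.51), PSMD4 (0.48), PSMB2 (0.47), PSMG4 (0.40), PSMB6 (0.36), PSMB9 (0.35) and PSMB1 (0.34) were among the 11, and PSMD9 fell by 0.23. Without DOHH2, or without RIVA, 7 members passed, and in the raw intensities 1 did. The part of this DMSO change in the PQR309 results at each time was not tested.

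**Figure D4:**
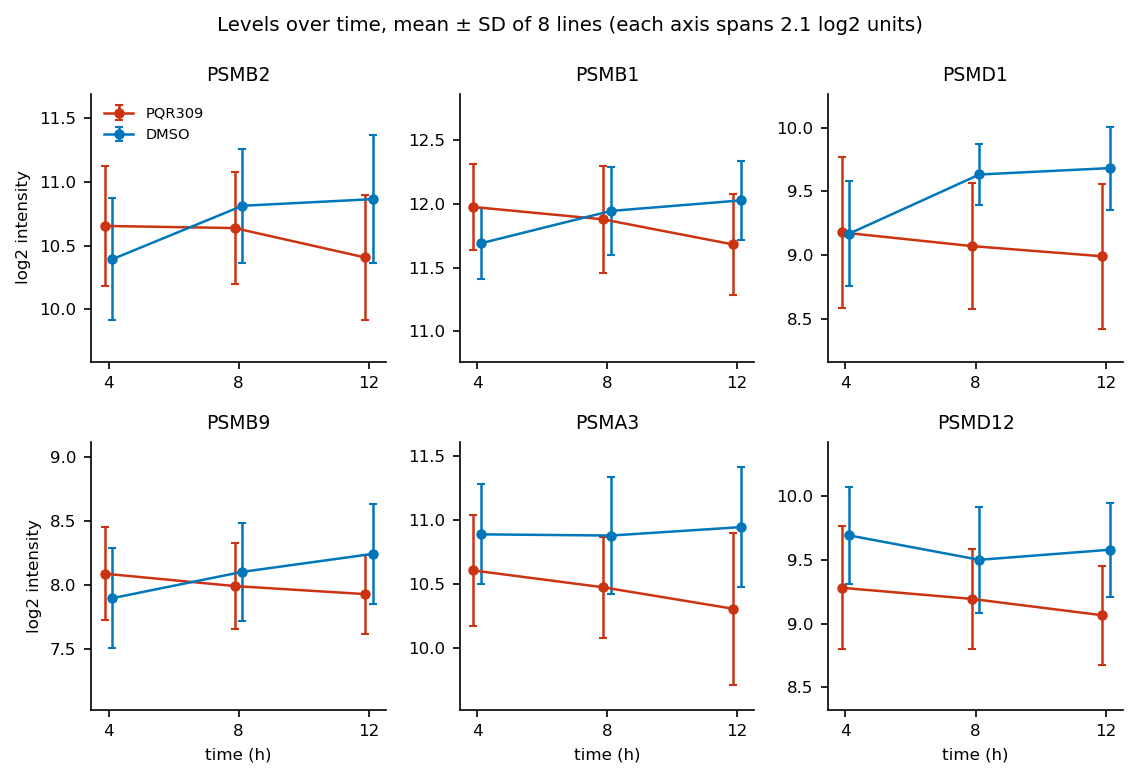
Log2 intensity (mean ± SD of 8 lines) of PSMB2, PSMB1, PSMD1, PSMB9, PSMA3 and PSMD12 is plotted against time for PQR309 (red) and DMSO (blue). For PSMB2 the PQR309 mean is 10.41 and the DMSO mean 10.86 at 12 h, while at 4 h the PQR309 mean of 10.65 lies above the DMSO mean of 10.39.

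The response is described line by line, with no test between lines. Over the 3 times the member median was -0.33 in DOHH2, -0.32 in U2932, -0.28 in OCILY1, -0.16 in TMD8, -0.15 in OCILY18, -0.14 in RIVA, -0.12 in SUDHL10 and 0.002 in SUDHL2. Members below 0 numbered 38, 39, 39, 37, 31, 30, 35 and 19 of 42 in the same order of lines. SUDHL2 was the least lowered line for 28 of the 42 members and for 19 of the 25 that fell, and DOHH2 was the most lowered line for 12 of the 25. The typical size of the response over all genes, the median absolute log2 difference, was 0.068 in SUDHL2 and 0.067 in SUDHL10, at the low end of a range that reached 0.112 in OCILY1. At 12 h the member median remained at -0.01 in SUDHL2, against -0.45 in U2932.

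Whether the 4 lines given every inhibitor, commonly classed as activated B-cell-like, differed from the other 4, commonly classed as germinal-centre B-cell-like, was tested on the line effects. The labels do not state these classes. The PQR309 effect differed in 0 of 42 members, beside 0% of all genes, with 0 members and 4.36% of all genes at an unadjusted p under 0.05 and a smallest adjusted p of 0.998 (PSMD10 0.16, PSMB3 0.19 and PSMB6 0.20 had the smallest p-values). The intervals of these differences ran from -0.38 to 0.63 over the members. DMSO levels differed in 0 members too, beside 0% of all genes, with 6 members (14.3%) at an unadjusted p under 0.05, beside 6.33% of all genes. PSME4 had the largest such difference, -0.75 in the lines given every inhibitor minus the others (adjusted p = 0.449), ahead of PSMD8 (0.54) and PSMB5 (0.44), both with an adjusted p of 0.677.

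The inhibitors were set beside each other in RIVA, SUDHL2, TMD8 and U2932, where PQR309 lowered 11 of 42 members and raised 0, beside 6.28% and 7.22% of all genes. The member median was -0.14. The contrasts with DMSO share the same DMSO arrays, so their values are given side by side. PSMG1 had levels of 9.83, 10.48, 9.60 and 10.44 in RIVA, SUDHL2, TMD8 and U2932 under PQR309, in that order of lines. It had 9.998, 10.58, 9.84 and 10.76 under idelalisib, 9.89, 10.85, 9.90 and 10.78 under duvelisib, 10.04, 10.86, 10.0004 and 10.77 under ibrutinib, and 10.16, 10.73, 10.49 and 11.02 under DMSO. TMD8 was lowered most by every inhibitor, and SUDHL2 lay above its DMSO level under duvelisib and ibrutinib. The differences from DMSO were -0.51 for PQR309 (95% interval -0.71 to -0.32, adjusted p = 0.00249), -0.31 for idelalisib (adjusted p = 0.0609), -0.25 for duvelisib (adjusted p = 0.217) and -0.18 for ibrutinib.

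PSMD12 had levels of 8.998, 9.93, 9.54 and 9.92 under PQR309 in the same order of lines, against 9.22, 10.27, 9.97 and 10.28 under DMSO. Each line was lower under PQR309 (-0.34 on average, 95% interval -0.47 to -0.21, adjusted p = 0.00288), although the ranges overlapped, and the averages were -0.16 for idelalisib, -0.10 for duvelisib and -0.16 for ibrutinib, none of which passed. The lid subunit PSMD11 fell by 0.38 under PQR309 (adjusted p = 0.0106), and PSME3, PSMA3, PSME2, PSME4, PSMA6, PSMC2, PSMA1 and PSMD5 completed the 11. Without TMD8 the PQR309 count was 1, and without RIVA or U2932 it was 2. With arrays scaled by their medians, or with the spread of this contrast alone, it was 0. The direction of the member median over the 3 times was the same in both tables, at -0.14 in each. In these 4 lines 34 of 42 members were below 0 in the normalized table and 36 in the raw table, 34 in both. Sizes for single members differed, as for PSMC4 (-0.26 normalized, -0.01 raw) and PSMC3 (-0.06 normalized, -0.33 raw).

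Under idelalisib 1 of 42 members rose and 0 fell, beside 2.75% and 1.92% of all genes, so the share that rose was no larger among the members. At an unadjusted p under 0.05 there were 8 of 42 members, a smaller share than the 21.9% of all genes. The single call is therefore described for its gene and not read as a result about the members. PSMD10, the base chaperone also known as gankyrin, had levels of 10.32, 11.06, 10.53 and 10.33 under idelalisib, against 10.08, 10.73, 10.36 and 10.19 under DMSO. It was higher in all 4 lines, by 0.22 on average (95% interval 0.10 to 0.33, adjusted p = 0.0351), and the call was lost without RIVA, TMD8 or U2932. The PSMD10 averages were 0.07 for PQR309, 0.11 for duvelisib and 0.17 for ibrutinib (adjusted p = 0.0829). PSME3 (-0.39, adjusted p = 0.0652) did not pass under idelalisib. Duvelisib gave 0 of 42 members, beside 0.0159% of all genes called; 4 members (9.52%) had an unadjusted p under 0.05, beside 14.6% of all genes, and PSMC6 (-0.12) and PSME1 (0.14) followed PSMG1 in order of p. Ibrutinib gave 0 of 42, beside 2.97% of all genes called; 12 members (28.6%) had an unadjusted p under 0.05, beside 22.6% of all genes, and the ATPase PSMC3 (-0.39, adjusted p = 0.0909) and the chaperone PSMG3 (-0.30, adjusted p = 0.0921) came nearest with PSMD10. The member medians were -0.02 for idelalisib, -0.06 for duvelisib and -0.07 for ibrutinib. The immunoproteasome subunits passed under none of the inhibitors. PSMB8 averaged 0.01 for PQR309, -0.17 for idelalisib, -0.10 for duvelisib and -0.01 for ibrutinib. Its lines disagreed in these raw intensities, with RIVA at -0.27 and TMD8 at 0.43 under PQR309, and at -0.35 and 0.38 under ibrutinib. Both inhibitors share the DMSO arrays of a line. In the normalized values PSMB8 was slightly lower under PQR309 than under DMSO in both lines. It was at 8.61 against 8.64 in RIVA and at 9.46 against 9.53 in TMD8. In the raw intensities PSMB9 averaged -0.09, 0.008, -0.14 and -0.10 in the same order of inhibitors, and PSMB10 -0.08, -0.05, -0.06 and -0.19. The PSMB10 value for ibrutinib had a 95% interval of -0.38 to -0.0085 (adjusted p = 0.202).

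By line, the member median under PQR309 was -0.29 in U2932, -0.18 in RIVA, -0.12 in TMD8 and -0.03 in SUDHL2. Under ibrutinib it was -0.16 in U2932 and -0.13 in RIVA, against 0.01 in TMD8 and -0.02 in SUDHL2. In RIVA it was -0.11 under idelalisib and -0.13 under duvelisib. By time, the mean of the line medians was -0.11, -0.15 and -0.21 for PQR309 at 4, 8 and 12 h. It was -0.03, 0.0018 and -0.10 for idelalisib, -0.0067, -0.02 and -0.12 for duvelisib and -0.02, -0.03 and -0.13 for ibrutinib. This mean was thus lowest at 12 h under all 4 inhibitors. For each line and time, however, the 4 inhibitors were compared with the same DMSO array. The order of times that they share is therefore not a separate observation for each inhibitor. The part of the DMSO arrays in this order was not tested. Single lines also differed from the mean. The TMD8 median was lowest at 8 h under PQR309 (-0.26, against -0.15 at 12 h), duvelisib (-0.10 against -0.05) and ibrutinib (-0.14 against 0.03). The SUDHL2 median was lowest at 4 h under PQR309 (-0.11, against -0.04 at 12 h), duvelisib (-0.09 against -0.05) and ibrutinib (-0.11 against 0.05). RIVA and U2932 were lowest at 12 h under these inhibitors. All these values come from the raw intensities. In the normalized values under PQR309 the TMD8 median was instead lowest at 12 h (-0.29, against -0.15 at 8 h). The SUDHL2 median there was highest at 4 h (0.09, against -0.03 at 8 h and -0.01 at 12 h). RIVA and U2932 were lowest at 12 h there too. The order of times in TMD8 and SUDHL2 thus differed between the tables. The times were not tested against each other here.

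The differences between inhibitors were tested directly for 3 pairs at matched times, with doses unknown. PQR309 minus idelalisib passed in 0 of 42 members, beside 0.0876% of all genes. At an unadjusted p under 0.05 there were 14 members (33.3%), all lower under PQR309, beside 9.69% of all genes, and the member median was -0.12. PSMC2 differed by -0.21 (95% interval -0.33 to -0.10, adjusted p = 0.179) and PSMD1 by -0.33 (interval -0.52 to -0.14, adjusted p = 0.189), each lower under PQR309 in all 4 lines, and PSME4 by -0.22. PQR309 minus ibrutinib passed in 0 members, beside 0.0557% of all genes, with 10 (23.8%) at an unadjusted p under 0.05, all lower under PQR309, beside 11.3% of all genes. PSMG1 differed by -0.33 (interval -0.52 to -0.14, adjusted p = 0.183), PSME2 by -0.28 and PSMD11 by -0.27. Duvelisib minus idelalisib passed in 0 members, beside 0% of all genes, with 2 (4.76%) at an unadjusted p under 0.05, beside 2.16% of all genes. PSME3 had the widest gap of that pair, 0.27 higher under duvelisib (interval 0.02 to 0.52), and PSMD3 (-0.19) and PSMD10 (-0.11) were the next by p. The intervals do not show that any pair acted alike.

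**Figure D5:**
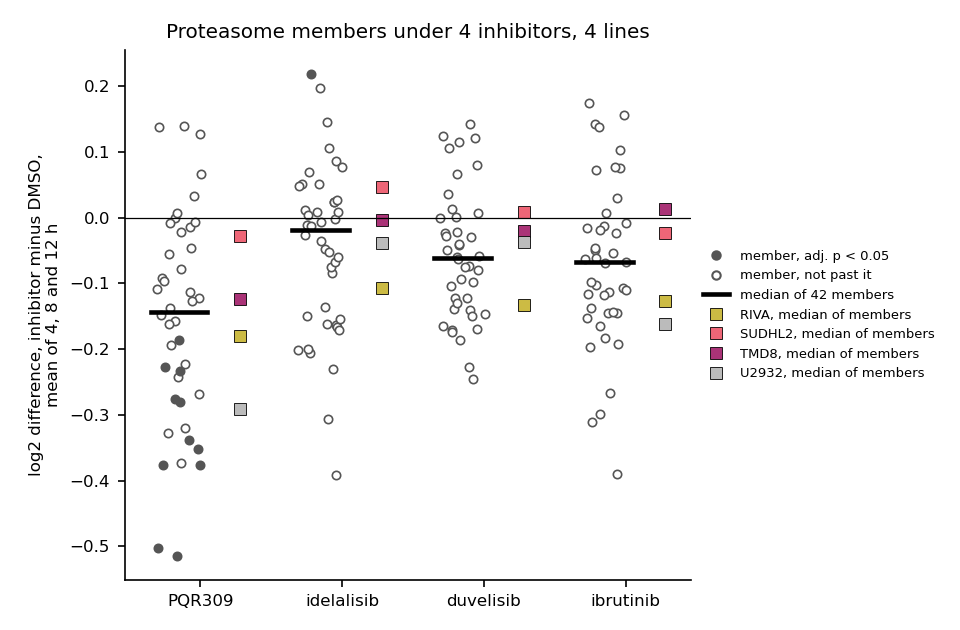
Each circle is 1 of 42 members, placed by its mean log2 difference from DMSO over RIVA, SUDHL2, TMD8 and U2932 and over 3 times, and filled where the adjusted p was under 0.05; black bars are medians and coloured squares the member median in each line. Filled circles number 11 under PQR309 and 1 under idelalisib, and the PQR309 median of -0.14 is the lowest of the 4.

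Genes that work with the proteasome were described for comparison. Of 30 partners listed for assembly, ubiquitin delivery and transcription, 26 were tested over 8 lines, and 11 fell and 1 rose under PQR309, beside 14.03% and 12.5% of all genes, with a median of -0.13. Those that fell included ADRM1 (-0.41, adjusted p = 0.0012), the ubiquitin receptor seated on PSMD1, UCHL5 (-0.39), the deubiquitinase that ADRM1 recruits, POMP (-0.26), which completes the 20S core, and VCP (-0.24), the unfoldase that delivers substrates. AKIRIN2, which carries proteasomes into the nucleus, rose by 0.19 (adjusted p = 0.032). NFE2L1 differed by 0.004 (adjusted p = 0.923), while NFE2L2 fell by 0.29 (adjusted p = 0.00233). Of 18 genes of MHC class I processing, 15 were tested, and 2 rose and 3 fell, beside the same 12.5% and 14.03% of all genes, with a median of -0.03. These small counts were near the shares of all genes and are not read as a result about the list. IRF1, the interferon-responsive factor that binds immunoproteasome promoters, rose by 0.29 (adjusted p = 0.0181), as did HLA-E (0.27, adjusted p = 0.0459). The HLA-E difference was largest in DOHH2 (0.86) and OCILY18 (0.53), and it was 0.01 in SUDHL10 and U2932. The peptide transporter subunit TAP2 fell by 0.29 (adjusted p = 0.00452), while its partner TAP1 (-0.11, adjusted p = 0.15) did not pass, and the chaperones CALR and CANX fell by 0.35 and 0.17. POMP, VCP, NFE2L1 and TAP1 were singled out after their values had been seen.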

How the data were processed

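Gene expression was read from Illumina bead arrays. GenomeStudio is named in the submitters' processing notes; its version and the genome build are not given in the sources used here. The authors deposited normalized log2 values for 84 arrays, in sets of 48 and 36 arrays with medians of 6.64 and 6.66, and raw probe intensity for 81 arrays with array medians of 78.3 to 139.7. For the other 3 arrays detection p-values were deposited in place of intensities; 39.0% to 40.2% of probes were detected there, and the highest level at that limit, 6.73, served as the detection limit. Of the 81 raw arrays, 27 ranked the probes differently from the normalized table (Spearman 0.816 to 0.910). 0 columns of per-sample values were left unused.

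Over 8 lines the authors' normalized log2 values were used, with raw intensities as an alternative. Over 4 lines the deposited raw intensity of 60 arrays was corrected (normexp, offset 50), quantile-normalized and log2-transformed. The brighter 50% of probes were kept, and the brightest probe with 1 symbol (30113 of 47231 probes) stood for a gene, so the levels of different genes were not compared. Limma tested within-line differences from 0 (n = 8), or fitted 5 treatments jointly, blocked by line (n = 4). The line is the independent sample, paired by the labels' line names; deviations of a line correlated at 0.925 to 0.954 (8 lines) and 0.877 to 0.980 (4 lines). Adjusted p-values are two-sided Benjamini-Hochberg values over all genes, with a threshold of 0.05, and ± is SD where stated. Scripts were tested on simulated data. Members, lists and tests were chosen with earlier results of these data known. Levels were given for PSMB5 to PSMB10, PSME1, PSME2 and the 5 most negative and 5 most positive members, and the 3 members of smallest p were named in other comparisons. Alternatives changed the filter, probe choice, scaling, variance model, pairing, times, lines and table. Limma 3.58.1 and data.table (version 1.17.8) ran in R 4.3.3, and figures were drawn with matplotlib 3.10.9 in Python 3.11.15.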

Additional observations from a re-analysis of the deposited data

Results flagged for a closer look

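The effect of PQR309 at 12 h differed from its effect at 4 h, by a test of the difference itself over 8 lines (limma, adjusted p under 0.05), in several members for which values over time were given. The 12 h effect minus the 4 h effect was -0.72 for PSMB2, -0.63 for PSMB1, -0.70 for PSMD1, -0.51 for PSMB9, -0.32 for PSMB6, -0.31 for PSMB5 and -0.28 for PSMB10. None of these passed in the raw intensities. For PSMB6, PSMB5 and PSMB10 the DMSO level moved more between 4 and 12 h than the PQR309 level. The PSMB6 level changed by 0.04 ± 0.20 under PQR309 and by 0.36 ± 0.28 under DMSO (SD, n = 8). In the same order of treatments the change was -0.05 ± 0.20 and 0.26 ± 0.18 for PSMB5. For PSMB10 it was -0.06 ± 0.15 and 0.22 ± 0.29. Of 15 alternatives tried, the call was lost under 9 for PSMB5, 9 for PSMB6 and 10 for PSMB10, whose value also turned sign under 1 more, and under 2 each for PSMB2, PSMB1, PSMD1 and PSMB9. Of 16 members examined for a line far from the other 7 lines in its PQR309 effect, 0 had one by Dixon's criterion, where chance gives about 1 in 20.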

How the results depend on the processing

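Over 8 lines, counts of members that passed changed with the pairing by line, the table used and, in places, the lines included. Without pairing by line the count was 0 for PQR309 over the 3 times, at 4 h, at 8 h, at 12 h and for the DMSO change, and 8 for the change in effect between 4 and 12 h; the wider spread between unpaired lines follows from that fit's construction. In raw intensities it was 14 over the 3 times, 0 at 4 h, 3 at 8 h, 18 at 12 h, 0 for the change in effect and 1 for the DMSO change. Raw intensities without DOHH2, an alternative chosen after seeing the data, gave 13, 0, 0, 11, 0 and 0 in the same order. The fits of raw intensities used 8 lines at 12 h and for the DMSO change, and 7 lines otherwise. Without DOHH2 they used 7 and 6 lines. The member medians of the raw intensities stayed below 0 for each PQR309 contrast over 8 lines. A fit with trend and robust variances gave 6 for the DMSO change. Leaving out each line in turn gave 22 to 26 over the 3 times, 9 to 15 at 4 h, 12 to 17 at 8 h, 22 to 33 at 12 h, 12 to 18 for the change in effect and 7 to 12 for the DMSO change.

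In the 4 lines, the PQR309 count of 11 became 0 under median scaling, 0 without the line block, 0 with the contrast's own spread, 6 without the 8 h arrays, 5 without the 12 h arrays, 3 in the deposited normalized table (added after seeing the data) and 1 to 11 when a line was left out. The single idelalisib call became 0 with the mean of a gene's probes, under median scaling, without the line block, with its own spread, with trend and robust variances, without the 8 h arrays, without the 12 h arrays and, at the low end of 0 to 1, when a line was left out. For ibrutinib 1 member passed without the 4 h arrays. Of the values for single members, PSMB10's change in effect between 4 and 12 h was 0.0013 (adjusted p = 0.998) in raw intensities and -0.28 in the normalized values. Over the 8 comparisons with a reported count above 0, 79 of 122 counts under the alternatives, those above included, stayed within 1.5 times it; in the 7 comparisons with a reported count of 0, where a count cannot fall, 99 of 100 stayed at 0. The cause of these changes was not tested beyond what is said here. Each array stands alone for its line, time and treatment, so array error and line differences cannot be told apart, and members near the detection limit (PSMA8, PSMD9) have the least signal over background.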
